A study of Mus musculus with 69 samples.

Results

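The genes for neutrophil granule proteins and calprotectin, 10 of the 18656 gene symbols tested, were followed in mouse lung after instillation of nano-titanium dioxide (nano-TiO2). They are S100a8 and S100a9 (the subunits of calprotectin), Cxcr2, Mpo, Elane, Ngp, Camp, Ltf, Mmp8 and Retnlg. Members were found by name: 12 of the 41174 probes carried an accession that RefSeq pairs with these symbols, 1 for each gene except Cxcr2 and Ltf, which had 2 probes each. No expression value entered this matching of probes to genes. The members themselves were chosen with earlier results of these data known.

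Neutrophils are short-lived white cells that leave the blood within hours of an injury to the airways, and they are the classic early responders to inhaled or instilled particles. Most of their granule proteins are made in the bone marrow, where promyelocytes transcribe the primary granule genes and later precursors the secondary granule genes, and these messages are largely lost before the cell enters the blood. The calprotectin subunits, the chemokine receptor Cxcr2 and late granule genes such as Mmp8 are still transcribed in mature cells. The members therefore span messages that mature neutrophils carry and messages that mark immature ones.

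All 69 mice were female C57BL/6, obtained at 5 to 7 weeks of age and acclimatised for 1 to 3 weeks. Each received 1 intratracheal instillation of 18, 54 or 162 µg of the nanomaterial (NM) NRCWE-025 or NRCWE-030 dispersed in water with 2% serum, or that vehicle alone, and lungs were taken on day 1 or day 28. This made 14 groups of 5 mice, except that the day 28 group given 162 µg of NRCWE-025 held 4, and the 5 vehicle mice of a day served both NMs. RNA from a small section of each frozen lung was labelled with Cy5 and hybridised with Cy3-labelled Universal Mouse Reference RNA. A level below is the log2 ratio of lung to reference for a gene, so that 1 unit is a doubling. Levels of different genes are not comparable with each other on this scale, because the reference differs for each gene.

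In the Cy5 channel 49.1% to 72.8% of an array's probes (median 62.1%) were well above background, and no spot was saturated. The markers of type 2 epithelium (6 of 6 measured), alveolar macrophages (6 of 6) and monocytes (6 of 6) were well above background on at least 35 of the 69 arrays. None of the 4 eosinophil markers (Epx, Prg2, Ccr3 and Il5ra) reached that. Heart muscle markers (Myh6, Myl7, Tnni3 and Actc1) were above background on all arrays and varied widely between lungs. In whole lung, more neutrophils and more RNA per neutrophil cannot be told apart.

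Among the members, the brightness of the lung signal ran over several orders. The S100a9 spot gave a Cy5 intensity above local background of 7324.5 to 92977.5, with a median of 21814, and even on its lowest array it stood at the 98.6th percentile of all probes. S100a8 (median 1194.5), Ltf (419), Retnlg (349), Mmp8 (127) and the brighter Cxcr2 probe (107.5) were well above background on all 69 arrays. Mpo was above background on 54 arrays, Camp on 33 and Ngp on 20. Elane, which encodes neutrophil elastase, was above background on 1 array. Its median intensity was 5, so its ratios carry no usable level and it is left out of the counts over 9 members below.

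S100A8 and S100A9 form a calcium-binding and zinc-binding heterodimer that makes up a large share of neutrophil cytosol protein and is released as an alarm signal. Their genes lie side by side on mouse chromosome 3. The 250 bases before the RefSeq start of each (GRCm38.p6, S100a8 at chr3:90668821-90669070 on the plus strand, S100a9 at chr3:90695722-90695971 on the minus strand) are shown because the pair is transcribed together in myeloid cells. Capitals mark matches on either strand to TATAAA, to TTGCNNAA (a core bound by CCAAT/enhancer-binding proteins) and to GAGGAA (a core bound by PU.1).
S100a8: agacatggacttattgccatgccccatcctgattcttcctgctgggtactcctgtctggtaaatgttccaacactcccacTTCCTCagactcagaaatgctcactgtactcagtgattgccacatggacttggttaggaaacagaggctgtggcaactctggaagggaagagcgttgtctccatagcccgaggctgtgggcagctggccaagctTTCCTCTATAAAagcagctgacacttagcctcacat
S100a9: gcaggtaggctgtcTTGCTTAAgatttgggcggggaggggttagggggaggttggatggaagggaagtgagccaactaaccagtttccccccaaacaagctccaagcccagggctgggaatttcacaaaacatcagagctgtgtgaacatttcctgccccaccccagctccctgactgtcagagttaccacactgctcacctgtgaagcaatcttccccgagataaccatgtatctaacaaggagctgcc
S100a8 held 1 TATAAA, 30 bases before its start and directly after a GAGGAA match on the other strand, and a further GAGGAA match upstream. S100a9 held 1 TTGCNNAA match and none to the other motifs. Of the 32851 RefSeq promoters searched over the same length, 12.4% held TATAAA, 9.56% TTGCNNAA and 23.3% GAGGAA, against 1, 5 and 6 of the 10 members. These matches describe the letters only.

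In the lungs of day 1 vehicle mice, S100a8 levels were 3.37, 2.86, 2.26, 3.08 and 3.00. At 162 µg of NRCWE-030 on day 1 they were 3.47, 3.66, 3.00, 2.76 and 3.17, which overlapped with vehicle. The difference was 0.30 ± 0.31 (SE, n = 5 and 5), against -0.09 ± 0.22 for NRCWE-025. S100a9 levels in day 1 vehicle mice were 7.41, 7.26, 7.10, 7.44 and 7.00. With 162 µg of NRCWE-030 they were 7.35, 7.31, 6.72, 6.83 and 7.03, again within or below the range of vehicle, with a difference of -0.20 ± 0.13. Scaling between arrays turned this difference positive, so its direction depends on the processing. Neither calprotectin gene passed the test at any dose of either NM on day 1.

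On day 28 the vehicle mice held the highest mean of the 14 groups for both genes. S100a8 levels in vehicle were 4.00, 4.70, 4.65, 2.41 and 2.75, so 3 mice stood at 4.00 or above and 2 at 2.75 or below. After 162 µg of NRCWE-030 they were 3.00, 2.54, 1.85, 3.08 and 2.95, all below the vehicle mean and overlapping its lower mice. The difference was -1.02 ± 0.38 (limma adjusted p = 0.520, n = 5 and 5). S100a9 followed with vehicle levels of 7.76, 7.63, 7.91, 6.92 and 7.77 against 7.26, 6.91, 7.10, 7.22 and 7.22, a difference of -0.45 ± 0.15 (limma adjusted p = 0.433). For NRCWE-025 at the same dose the differences were -0.67 ± 0.59 for S100a8 and -0.33 ± 0.16 for S100a9 (n = 4 and 5).

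S100a8 and S100a9 differed in how much they varied from mouse to mouse. S100a8 ran from 0.74 to 4.70 over the 69 lungs, a 15.5-fold range, while S100a9 ran from 6.72 to 7.91, a 2.28-fold range. The pooled SD within groups was 0.65 for S100a8, at the 99.2nd percentile of all genes, and 0.21 for S100a9, at the 64.5th percentile. Single lungs showed the gap: replicate 3 of NRCWE-030 18 µg day 1 had an S100a8 level of 0.86 with S100a9 at 7.21, and replicate 5 of NRCWE-025 54 µg day 28 had 0.74 with S100a9 at 7.35. Both S100a9 values were ordinary for that gene. The arrays of these lungs had the lowest correlations of all 69 with the mean of their group's other arrays (0.896 and 0.927). The second, which holds the lowest S100a8 level, also had the fewest probes well above background in Cy5 (49.1%). The part of array quality in the gap was not tested. Across mice, deviations from the group mean of the pair still correlated (Pearson r = 0.42, Spearman rho = 0.43).

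**Figure D1:**
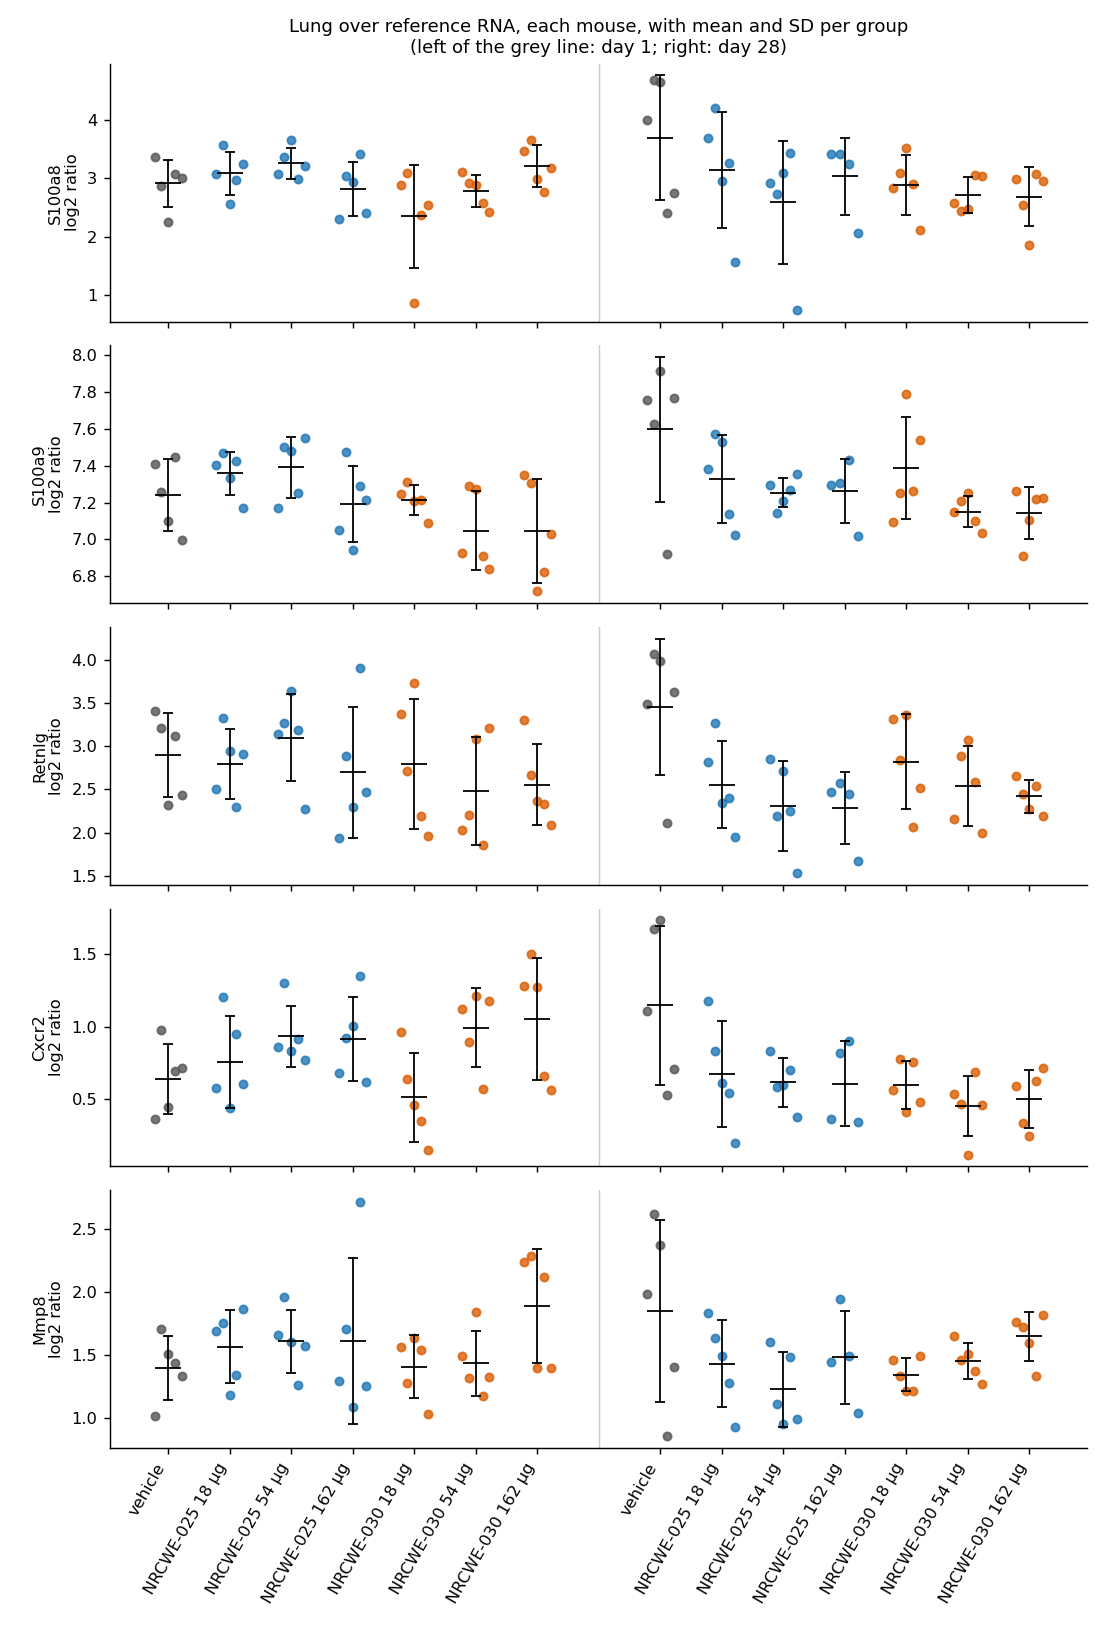
Log2 ratio of lung to reference RNA (vertical axis) for S100a8, S100a9, Retnlg, Cxcr2 and Mmp8 in each mouse (points), by group, with group mean and SD (bars); grey is vehicle, blue NRCWE-025 and orange NRCWE-030. The day 28 vehicle group has the highest mean for S100a8, S100a9, Retnlg and Cxcr2, and its 5 mice spread from 2.41 to 4.70 for S100a8.

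Cxcr2 is the receptor through which CXC chemokines draw neutrophils out of the blood. Its levels at 162 µg of NRCWE-030 on day 1 were 1.28, 1.51, 1.27, 0.66 and 0.56. Day 1 vehicle mice had 0.36, 0.98, 0.45, 0.69 and 0.71, so 3 treated mice lay above every vehicle mouse and 2 lay within their range. The difference was 0.42 ± 0.19 (95% CI 0.02 to 0.81), and it did not pass the test (limma adjusted p = 0.346). Mice given 162 µg of NRCWE-025 had levels of 0.68, 0.92, 1.00, 1.35 and 0.62, a difference of 0.28 ± 0.16 (limma adjusted p = 0.503).

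On day 28 Cxcr2 lay the other way. Vehicle mice had 1.11, 1.67, 1.74, 0.52 and 0.70, and mice given 162 µg of NRCWE-030 had 0.59, 0.34, 0.24, 0.63 and 0.71. All 5 treated mice were below the vehicle mean and overlapped with the 2 lower vehicle mice alone. The difference was -0.65 ± 0.19 (95% CI -1.04 to -0.26, limma adjusted p = 0.305), and at 54 µg it was -0.70 ± 0.19 (limma adjusted p = 0.366). The test of the difference between days itself gave 1.07 ± 0.27 for NRCWE-030 (day 1 effect minus day 28 effect, limma adjusted p = 0.0678), the smallest adjusted p of any member in any comparison, and 0.82 ± 0.27 for NRCWE-025 (adjusted p = 0.231). With the slide or the scan day as a fixed block the Cxcr2 day difference passed the threshold for both NMs, with adjusted p of 0.0057 and 0.0028 for NRCWE-030 and of 0.0297 and 0.0343 for NRCWE-025. The share of all genes called with these blocks is not given here.

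The Cxcr2 probes differed in brightness, and every Cxcr2 level and difference given by gene combines both. The gene level therefore lay between the probes. In day 28 vehicle mice its mean was 1.15, against 2.02 for A_52_P559975 and 0.28 for A_51_P148602. A_52_P559975 was above background on all arrays, and its day difference for NRCWE-030 was 1.76 ± 0.44. A_51_P148602 was above background in lung on 22 arrays. In the 4 groups of that comparison it was above background on 1 (day 1 vehicle), 2 (162 µg, day 1), 4 (day 28 vehicle) and 1 (162 µg, day 28) of the 5 arrays, so it gives no usable difference. Adjusted over all probes, neither passed the test, with a smallest adjusted p of 0.107 among the 12 probes, for A_52_P559975.

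Mmp8, neutrophil collagenase, had levels of 2.24, 2.29, 1.40, 2.12 and 1.40 at 162 µg of NRCWE-030 on day 1. Day 1 vehicle mice had 1.01, 1.71, 1.51, 1.44 and 1.33, so 3 treated mice exceeded all vehicle mice. The difference was 0.49 ± 0.19 (95% CI 0.10 to 0.88, limma adjusted p = 0.235). For NRCWE-025 it was 0.21 ± 0.23, and 1 mouse at 2.72 stood apart from the other 4 (1.09 to 1.71). Mmp8 and Cxcr2 at 162 µg of NRCWE-030 were the only 2 of 54 day 1 differences from vehicle (9 members, 3 doses, 2 NMs) with an unadjusted p under 0.05. Of all genes, 5.12%, 6.53% and 12.3% had such a p at 18, 54 and 162 µg of NRCWE-025, and 7.3%, 8.76% and 12.9% at the same doses of NRCWE-030. Between 162 and 18 µg of NRCWE-030 on day 1, differences were 0.86 ± 0.31 for S100a8, 0.54 ± 0.19 for Cxcr2 and 0.48 ± 0.19 for Mmp8, with adjusted p of 0.257, 0.226 and 0.313 (limma), where 1.03% of all genes passed. The S100a8 value rests on replicate 3 at 18 µg, and without that mouse it was 0.49 ± 0.21 (limma adjusted p = 0.453).

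Retnlg encodes resistin-like gamma, a secreted protein of myeloid cells. Its day 1 differences at 162 µg were no larger than their standard errors, with -0.20 ± 0.32 for NRCWE-025 and -0.34 ± 0.35 for NRCWE-030. On day 28 vehicle mice had 3.49, 4.07, 3.99, 2.11 and 3.63. Mice given 162 µg of NRCWE-030 had 2.66, 2.45, 2.27, 2.54 and 2.20, and those given NRCWE-025 had 2.47, 2.57, 2.45 and 1.67. Each of these 9 treated lungs lay below 4 of the 5 vehicle lungs, and replicate 4 of vehicle, at 2.11, was lower than all but 1 of them. The differences were -1.03 ± 0.31 (limma adjusted p = 0.343) and -1.17 ± 0.36 (95% CI -1.91 to -0.42, adjusted p = 0.431).

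Primary granules carry myeloperoxidase and the serine proteases, and secondary granules carry lactoferrin, cathelicidin and neutrophilic granule protein. Mpo, Ngp and Camp, messages of immature neutrophils, were low in most lungs and high together in a few. Their 250 bases before the RefSeq start are shown because these 3 genes varied together between mice (Mpo at chr11:87793534-87793783, plus strand, Ngp at chr9:110419558-110419807, plus strand, Camp at chr9:109849457-109849706, minus strand, GRCm38.p6), with the same motifs in capitals.
Mpo: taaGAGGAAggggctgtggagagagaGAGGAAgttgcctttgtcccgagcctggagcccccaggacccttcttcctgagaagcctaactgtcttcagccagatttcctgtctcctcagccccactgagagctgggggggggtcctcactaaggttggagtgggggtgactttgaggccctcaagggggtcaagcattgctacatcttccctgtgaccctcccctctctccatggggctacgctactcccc
Ngp: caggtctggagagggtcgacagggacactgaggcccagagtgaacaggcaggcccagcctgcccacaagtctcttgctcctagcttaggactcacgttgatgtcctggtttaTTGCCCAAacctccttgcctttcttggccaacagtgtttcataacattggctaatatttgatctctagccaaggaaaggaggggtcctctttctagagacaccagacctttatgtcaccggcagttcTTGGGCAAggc
Camp: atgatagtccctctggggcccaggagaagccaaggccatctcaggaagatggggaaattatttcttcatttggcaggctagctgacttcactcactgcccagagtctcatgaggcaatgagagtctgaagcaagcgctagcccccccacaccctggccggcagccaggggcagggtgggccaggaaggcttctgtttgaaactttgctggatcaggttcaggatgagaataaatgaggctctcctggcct
Mpo held 2 GAGGAA matches, Ngp held 2 TTGCNNAA matches and Camp held none of the 3 motifs, so no motif searched here was common to all of them.

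Mpo levels lay between -0.59 and 0.17 in 10 of the 14 groups, and the highest value of all was 1.84 in replicate 5 of NRCWE-025 18 µg day 1. The same lung had the highest Ngp (1.35) and Camp (2.49) of all 69. Replicate 5 of NRCWE-030 18 µg day 1 followed, with 1.69 for Mpo, 0.96 for Ngp and 1.57 for Camp, and then replicate 2 of NRCWE-030 54 µg day 1, with 1.14, 0.70 and 1.32. These 3 mice belonged to different groups, none of them at the highest dose. In the first of them S100a8 (3.26) and S100a9 (7.17) were near their group means of 3.09 and 7.36. Another mouse, replicate 1 of NRCWE-025 162 µg day 28, had Mpo at 1.46 with Ngp at 0.36 and Camp at 0.33.

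At 162 µg none of these 3 genes differed from vehicle beyond its error on day 1. The Mpo differences were 0.16 ± 0.30 for NRCWE-025 and 0.07 ± 0.31 for NRCWE-030, and those of Ngp and Camp were smaller. On day 28 Camp levels in vehicle mice were 1.26, 0.32, 0.47, 0.14 and 0.21. At 162 µg of NRCWE-030 they were 0.35, -0.19, -0.11, -0.08 and -0.12, a difference of -0.51 ± 0.15 (limma adjusted p = 0.343). At 18 and 54 µg of that NM all 5 mice lay below all vehicle mice, between -0.14 and 0.06 and between -0.15 and 0.12, a pattern that 0.633% and 0.799% of all genes also showed. Camp was above background on 3 of the 5 vehicle arrays and on 1 of 5 at each of these doses. Ngp was above background on 0 of 5 arrays at 18 µg of NRCWE-030 on day 28 and on 3 of 5 in vehicle of that day, so no fold is given.

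Ltf, lactoferrin, varied more between mice than almost any gene on the array. It ran from 1.19 to 6.10, a width of 4.91 on the log2 scale, and its pooled SD of 1.23 stood at the 99.8th percentile. In day 1 vehicle mice alone the levels were 4.23, 6.10, 2.79, 2.39 and 1.63. The highest level of any treated mouse was 5.25, inside this range, and the lowest was 1.19, at 18 µg of NRCWE-030 on day 28. The difference at 162 µg of NRCWE-030 on day 1 was 0.34 ± 0.86, so a doubling in either direction could not be detected.

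**Figure D2:**
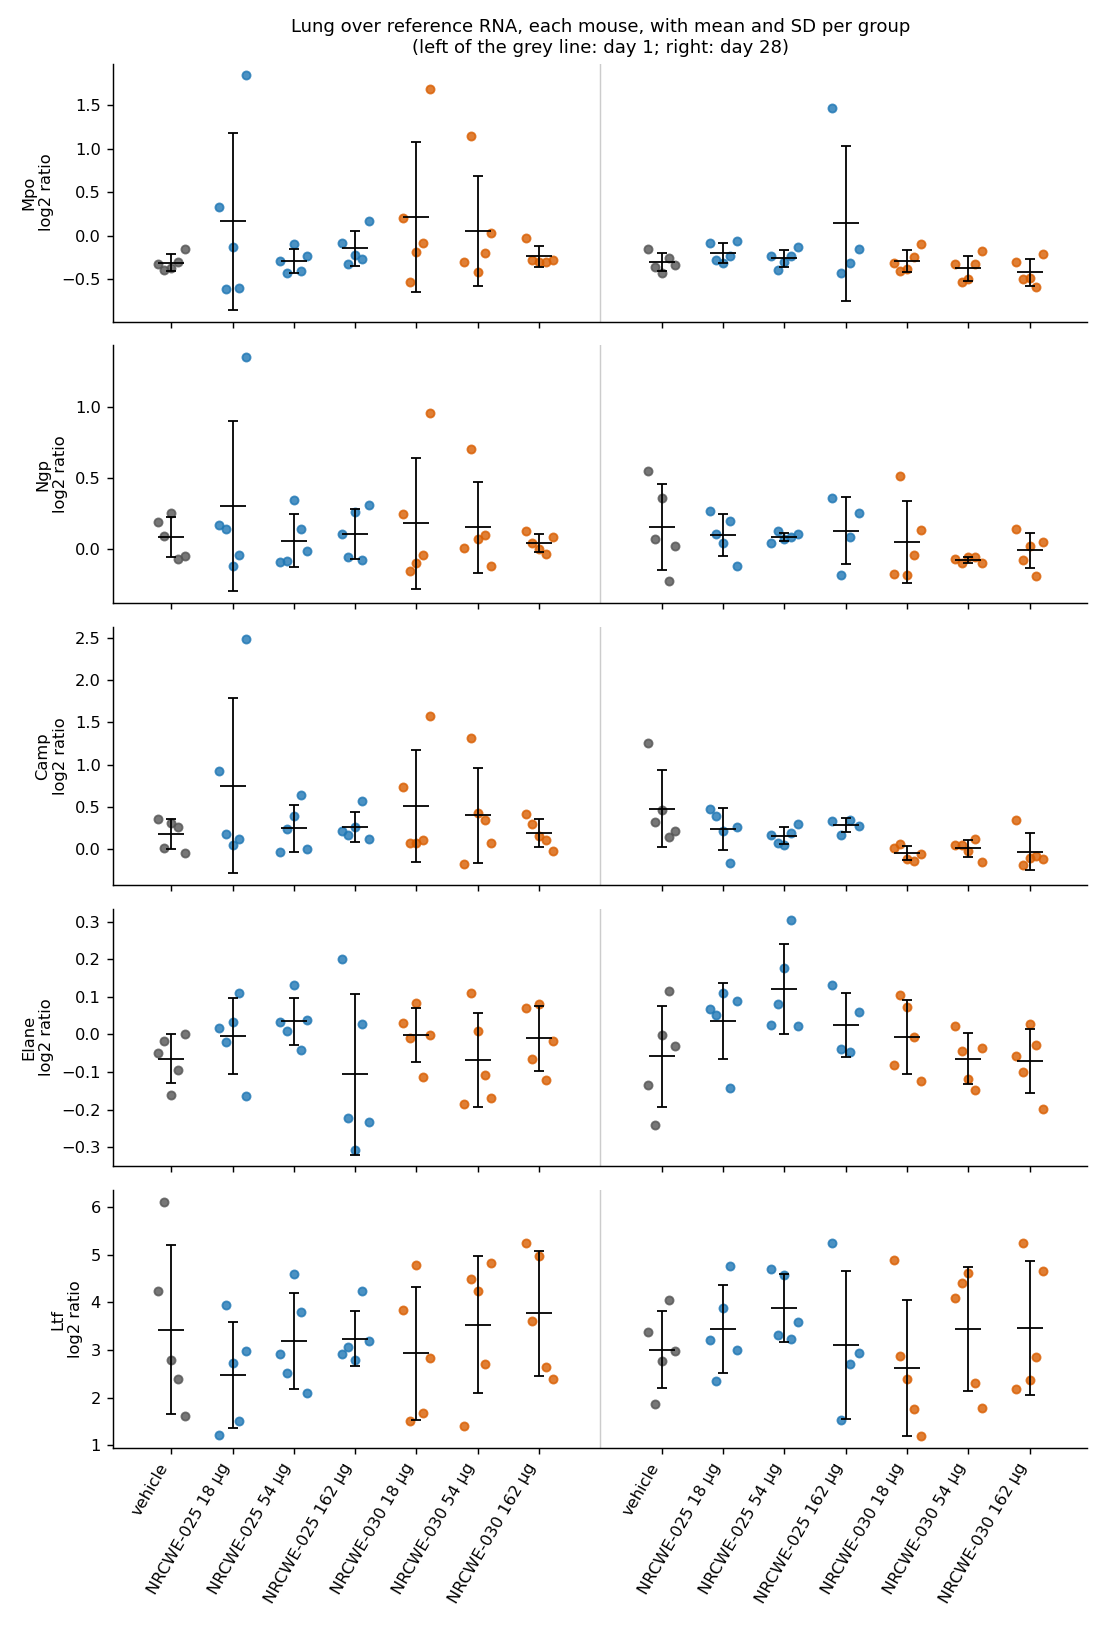
Log2 ratio of lung to reference RNA for Mpo, Ngp, Camp, Elane and Ltf in each mouse (points), by group, with group mean and SD (bars); grey is vehicle, blue NRCWE-025 and orange NRCWE-030. Single mice in 3 day 1 groups stand high for Mpo, Ngp and Camp together, and Ltf spreads widely in nearly every group, vehicle included.

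Over all comparisons (dose F-tests, doses against vehicle, 162 against 18 µg, NMs, days and vehicle days) the 10 members gave 310 tests with limma. None passed an adjusted p of 0.05. An unadjusted p under 0.05 was held by 46, a larger share than the 7.94% of all tests over all genes. The comparisons share mice and the members vary together, so these tests are not independent. In the dose F-tests 0 of 10 members were called, against 0.0214% and 0.954% of all genes on day 1 (NRCWE-025 and NRCWE-030) and 0.0268% and 0.102% on day 28. At 162 µg against vehicle 0 were called, against 0.209% and 1.69% of all genes on day 1 and 0.0161% and 0.0965% on day 28. At 18 µg the shares of all genes were 0% and 0.00536% on day 1 and 0.059% and 0.118% on day 28. At 54 µg they were 0% and 0.0804%, and 0.0268% and 0.0536%.

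The 9 members other than Elane leaned differently on the 2 days. Of these, Ngp and Camp were above background on only 20 and 33 of the 69 arrays, so many of their values lay near the floor. On day 1, 35 of 54 differences from vehicle were above 0, in a range of -0.95 to 0.57. The share of all genes below 0 was 54.6%, 52.7% and 50% at 18, 54 and 162 µg of NRCWE-025 and 50%, 52.3% and 48.7% for NRCWE-030. On day 28, 45 of 54 were below 0, in a range of -1.17 to 0.87, and the 22 with an unadjusted p under 0.05 were all lower in treated mice. Of all genes, 4.43%, 3.89% and 3.58% were lower at an unadjusted p under 0.05 at 18, 54 and 162 µg of NRCWE-025, and 3.88%, 3.32% and 3.55% for NRCWE-030. A log2 difference below 0 was held by 48.3%, 50.1% and 51.3% of all genes for NRCWE-025 and by 50%, 49.7% and 50.7% for NRCWE-030. The 6 comparisons share the same 5 vehicle mice, and the members vary together between mice, so the 54 values are far fewer than 54 independent results.

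The slides divided the vehicle mice between the NMs. On day 28, 5 of the 14 NRCWE-025 arrays lay on a slide with a vehicle mouse (replicates 2 and 4), and 9 of the 15 NRCWE-030 arrays did (replicates 1, 3 and 5). For NRCWE-030, 24 of 27 day 28 differences were below 0 and 14 had an unadjusted p under 0.05. With the slide as a fixed block these were 25 and 17, and with the scan day 25 and 18. In this fit each slide had its own scan day, except that the slides of 18 µg replicates 3 and 5 shared 1. The blocks are therefore nearly the same fit, and their likeness is no separate result. With the slide block Cxcr2 passed the test at 162 µg (-0.79, adjusted p = 0.0396) and at 54 µg (-0.80, adjusted p = 0.0399), while S100a9 (-0.67, adjusted p = 0.0772) and Retnlg (-1.13, adjusted p = 0.0793) did not. The shares of all genes with the blocks are not given here, neither for calls nor for unadjusted p.

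For NRCWE-025, 21 of 27 day 28 differences were below 0 and 8 had an unadjusted p under 0.05. With the slide as a random block these were 20 and 7. With the slide as a fixed block 9 of 27 were below 0, and the 1 difference with an unadjusted p under 0.05 was higher in treated mice. The scan day as a block is the same fit here and gave the same counts. The values at 162 µg then became 0.30 for S100a8, 0.06 for S100a9, 0.13 for Mmp8, 0.14 for Camp, -0.23 for Cxcr2 and -0.31 for Retnlg. With the random block S100a8 (-0.34), S100a9 (-0.26), Mmp8 (-0.21) and Camp (-0.14) stayed below 0. Of the 4 mice given 162 µg of NRCWE-025, 1 shared a slide with a vehicle mouse, and that was replicate 4, the vehicle mouse lowest for S100a8, S100a9, Cxcr2, Mmp8 and Retnlg. Of the 5 mice given 162 µg of NRCWE-030, 3 shared a slide with vehicle replicates 1, 3 and 5. The fixed block values for NRCWE-025 therefore rest on few arrays. Those for NRCWE-030 rest on vehicle replicates 1, 3 and 5 alone.

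**Figure D3:**
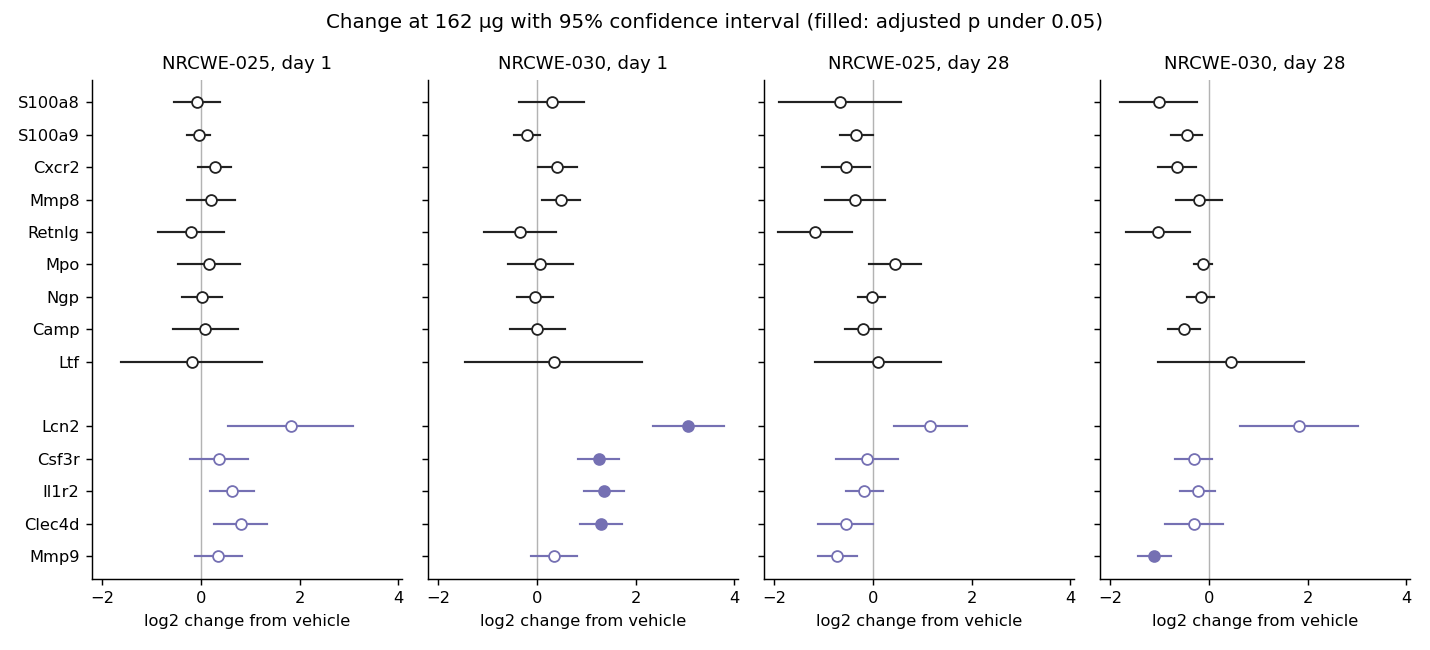
Log2 change from vehicle at 162 µg (points) with its 95% confidence interval (lines) for 9 members (black) and 5 other neutrophil genes (violet), in 1 panel per NM and day; filled points passed an adjusted p of 0.05. All member points are open. Lcn2, Csf3r, Il1r2 and Clec4d are filled for NRCWE-030 on day 1, and Mmp9 for NRCWE-030 on day 28. The 5 other genes are drawn from longer lists, and each passed a test in these data. Most listed neutrophil genes did not pass, so the 5 do not stand for them.

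The vehicle groups of the 2 days were compared to give the background of the day 28 result. No slide held vehicle arrays of both days, so day and slide cannot be told apart in the tests of this comparison. Day 28 vehicle exceeded day 1 vehicle by 0.79 ± 0.40 for S100a8, 0.35 ± 0.13 for S100a9, 0.51 ± 0.19 for Cxcr2, 0.45 ± 0.23 for Mmp8 and 0.56 ± 0.34 for Retnlg. None of the 10 members passed the test (0.0375% of all genes did), with adjusted p of 0.382 for S100a9 and 0.388 for Cxcr2 (limma). Without vehicle replicate 4 of day 28, the low mouse for S100a9, that gene passed with a difference of 0.52 (adjusted p = 0.0440). Without the same mouse S100a9 (-0.62, adjusted p = 0.0359) and Retnlg (-1.37, adjusted p = 0.0317) also passed at 162 µg of NRCWE-030 on day 28, as did S100a9 at 54 µg (-0.61, adjusted p = 0.0489). The share of all genes called without that mouse is not given here.

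The treated lungs of day 28 were also set beside day 1 vehicle. Their group means ran from 2.59 to 3.14 for S100a8, where day 1 vehicle stood at 2.91 ± 0.41 (SD, n = 5), and from 0.45 to 0.67 for Cxcr2, against 0.64 ± 0.25. For S100a9 they ran from 7.14 to 7.39, against 7.24 ± 0.19, and for Retnlg from 2.29 to 2.82, against 2.90 ± 0.49, so all 6 Retnlg means were lower. Of the 29 treated lungs, 10 lay below the lowest day 1 vehicle mouse for Retnlg, 5 for S100a8, 5 for Cxcr2 and 1 for S100a9, and 6 lay above the highest for S100a8. As 18 of the 19 slides held arrays of 1 day only, these are values side by side with no test.

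The heart muscle markers were set beside these values. The mean level of these 4 genes per array was 1.52 to 5.31 (median 1.74) in day 1 vehicle mice and 2.25 to 4.30 (median 3.35) in day 28 vehicle mice. It was 1.03 to 4.46 (median 2.20) at 162 µg of NRCWE-030 on day 28 and 0.67 to 4.29 (median 1.15) at 162 µg of NRCWE-030 on day 1. None of the 4 was called in these comparisons. Alveolar macrophage markers (6 genes) ran from 3.24 to 4.13 in day 28 vehicle mice and from 3.75 to 4.08 at 162 µg of NRCWE-030, and monocyte markers (6 genes) from 0.92 to 1.43 and from 1.08 to 1.68. The part of these cells in the member levels was not tested.

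The NMs were also set against each other at equal dose and day, where the vehicle mice cancel out. No member was called in the F-tests over the 3 doses, against 0.155% of all genes on day 1 and 0.241% on day 28. At 162 µg on day 1, NRCWE-030 minus NRCWE-025 was 0.39 for S100a8 (95% CI -0.41 to 1.18), 0.14 for Cxcr2 (-0.24 to 0.52) and 0.28 for Mmp8 (-0.18 to 0.73). On day 28 it was -0.35 for S100a8 (-1.20 to 0.49), -0.10 for Cxcr2 (-0.50 to 0.30) and 0.13 for Retnlg (-0.59 to 0.86). These intervals include 0, and for S100a8 they also include a doubling on day 1. The lowest unadjusted p among the 9 members at any dose was that of S100a9 at 54 µg on day 1, where the difference was -0.34 ± 0.13 (limma adjusted p = 0.672). For the difference between days, 0 of 10 members were called for either NM, against 0.059% of all genes for NRCWE-025 and 0.198% for NRCWE-030.

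Deviations of each mouse from its group mean were compared between members over the 69 lungs, for 36 pairs of 9 genes. The mice fell along 2 sets of genes. In the first, Mpo, Ngp and Camp gave r of 0.75 (Mpo and Ngp), 0.73 (Mpo and Camp) and 0.82 (Ngp and Camp), with Spearman rho of 0.49, 0.40 and 0.61. Without the 2 mice farthest from the median of the first gene, r fell to 0.56, 0.53 and 0.68. As 3 mice stood high for all of these genes, leaving out 2 does not remove every such lung. Ngp and Camp were above background on 20 and 33 of the 69 arrays, so many of their values lay near the floor. For Ngp and Camp the permutation p within groups was 1e-05, the smallest that the permutations could give (adjusted p = 9e-05), and for Mpo and Ngp it was 6e-05 (adjusted p = 0.000432).

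In the second set, S100a8, S100a9, Cxcr2, Mmp8 and Retnlg gave r of 0.36 to 0.66. Cxcr2 and Mmp8 were the closest pair (r = 0.66, rho = 0.59, 0.60 without the 2 farthest mice), followed by S100a8 and Cxcr2 (r = 0.61, rho = 0.59). The permutation p was 1e-05 for both (adjusted p = 9e-05). S100a8 and S100a9 gave a permutation p of 0.00091 (adjusted p = 0.00308), and S100a9 with Cxcr2 did not pass the adjustment (permutation p = 0.0249, adjusted p = 0.0639). Between the sets r lay between -0.28 and 0.17, and none of these pairs passed the adjustment. Ltf joined neither set, but it correlated with Retnlg (r = 0.42, rho = 0.42, permutation p = 0.00064, adjusted p = 0.00288). With the slide means also removed, r was 0.75 for Mpo and Ngp, 0.54 for S100a8 and S100a9 and 0.66 for Cxcr2 and Mmp8. With scan day means removed in their place, r within the second set was 0.39 to 0.63, and 0.45 for S100a8 and Cxcr2. Between the sets it then ran from -0.15 to 0.34, highest for S100a8 and Ngp, so the sets stood less far apart.

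**Figure D4:**
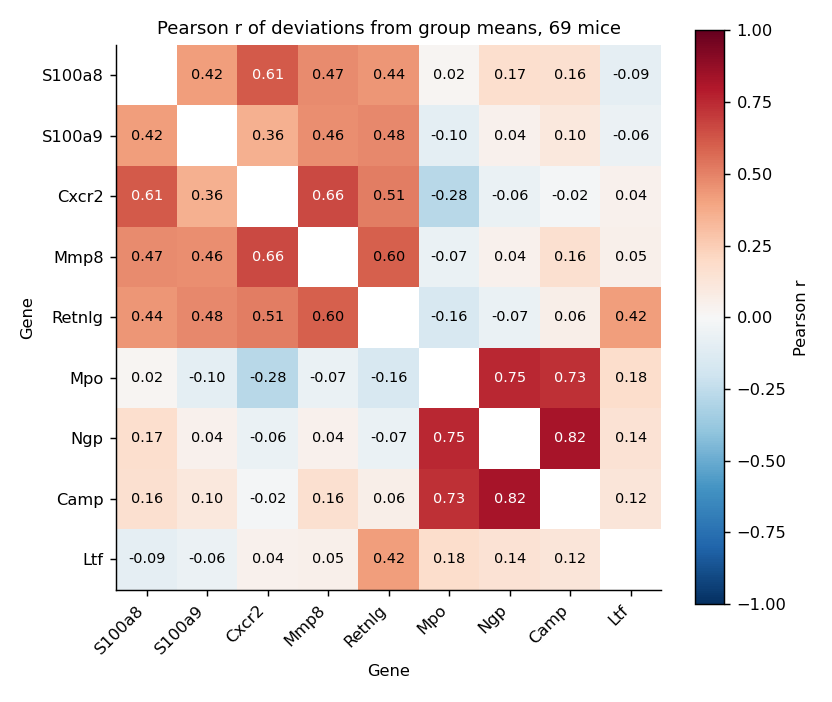
Pearson r between members (both axes: genes) of each mouse's deviation from its group mean, over 69 mice, with colour and number giving r. Mpo, Ngp and Camp form a block at 0.73 to 0.82, and S100a8, S100a9, Cxcr2, Mmp8 and Retnlg a second at 0.36 to 0.66.

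Among 13710 genes above background on at least 35 arrays, those with the pattern nearest to each member except Elane were named as a description. By deviations from group means over the 69 mice, the nearest gene to Mpo, to Ngp and to Camp was in each case Ctsg, cathepsin G of primary granules, with r of 0.64, 0.54 and 0.45. Ctsg stood at 0.72, 0.32 and 0.32 in the 3 mice that were high for Mpo, Ngp and Camp, and its median over all mice was 0.07. Its highest value, 0.87, was in replicate 1 of NRCWE-025 162 µg day 28, the lung with Mpo at 1.46. Ctsg also stood at 0.45 in replicate 5 of NRCWE-030 18 µg day 28, a group in which no Mpo level exceeded -0.09. That array had the fewest probes well above background in Cy3 (43.6%). Prtn3, another primary granule gene, was above background on 27 arrays. Its r with Mpo, Ngp and Camp was 0.18, -0.02 and -0.06. By the same measure S100a8 was nearest to Dach1 (r = 0.79), S100a9 to Mlc1 (r = 0.59) and Cxcr2 to Spink5 (r = 0.69). Mmp8 was nearest to Il1r2 (r = 0.62), the decoy receptor for interleukin 1. Retnlg was nearest to Car8 and to Il1b, the gene of interleukin 1 beta (both r = 0.69).

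Ltf had other neighbours. They were Muc5b, an airway gel-forming mucin (r = 0.93), Bpifb1, a secreted protein of airway epithelium (r = 0.91), and Serpina9 (r = 0.89). Muc5b ran from 0.26 to 5.94 over the 69 lungs, and in replicate 1 of NRCWE-025 162 µg day 28 it stood at 5.39 with Ltf at 5.25. Its r with Mpo, Ngp and Camp was between -0.02 and 0.02. Muc5b was called in 0 of the 31 comparisons. By group means over the 14 groups, S100a8 was nearest to Stfa2l1, a stefin of neutrophils (r = 0.89), S100a9 to Clock (0.88), Cxcr2 to Tbcb (0.88) and Ltf to Tmc5 (0.91). By this measure Mpo and Ngp were nearest to Fer (0.80 and 0.83), Camp to Rflna (0.80), Mmp8 to Hmgn1 (0.87) and Retnlg to Hif1an (0.87).

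Other neutrophil genes were taken from lists to place the members. At 162 µg of NRCWE-030 on day 1, 5 of 24 measured surface and cytosol genes of neutrophils rose and none fell (1.22% of all genes rose), with a list median of 0.15 against 0.0045 for all genes. The 5 were Il1r2 (1.36 ± 0.19), Clec4d (1.30 ± 0.20), the G-CSF receptor Csf3r (1.25 ± 0.20), Trem1 (0.60 ± 0.12) and the integrin subunit Itgam (0.46 ± 0.10). Csf3r levels were 1.87, 2.60, 2.38, 2.39 and 2.14, all above the vehicle levels of 0.70, 0.76, 0.82, 1.37 and 1.50. Il1r2 levels were 2.05, 2.38, 1.60, 1.06 and 1.28, again all above vehicle (0.21 to 0.37). For Cxcr2 2 of 5 mice lay within the range of vehicle. Il1r2 was called in all 10 alternatives tried, Clec4d in 9, Trem1 in 8, Csf3r in 7 and Itgam in 5. With the slide as a fixed block Csf3r, Trem1 and Itgam no longer passed (adjusted p = 0.0945, 0.0738 and 0.175), with the scan day Clec4d too did not (adjusted p = 0.139), and in the scanner log ratio the Csf3r difference was 0.30 (adjusted p = 0.795). Markers of other cells in the same lungs are given beside this rise. Monocyte markers (6 genes) had a mean level of 1.09 to 1.76 (median 1.48) per array at that dose and day, against 0.99 to 1.27 (median 1.05) in vehicle, and none of them was called. Alveolar macrophage markers (6 genes) ran from 3.14 to 4.03 (median 3.55), against 3.57 to 4.16 (median 3.81). Erythroid markers (4 genes) ran from 3.69 to 4.11 (median 3.77), against 4.00 to 4.66 (median 4.12), and Hba-a1, an alpha globin gene, fell by 0.65 (adjusted p = 0.0207), a call that scaling between arrays (-0.14) and both fixed blocks ended. The part of these cells in the rise was not tested.

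Of 13 other granule protein genes measured, 2 rose at that dose and day, Lcn2 and Ctsc, with a list median of 0.03. Lcn2, lipocalin 2, is a secondary granule protein that airway epithelium also makes. Its levels were 5.39, 5.12, 4.74, 4.40 and 4.52 against 1.25 to 2.17 in vehicle, a difference of 3.07 ± 0.34 (adjusted p = 0.000105). Ctsc, cathepsin C, which activates the granule serine proteases, rose by 0.91 ± 0.19. Lcn2 was called in all 10 alternatives, and Ctsc was not called with the slide or the scan day as a fixed block. The primary granule genes Prtn3 and Ctsg were not called in any of the 31 comparisons. Among 13 other S100 genes 1 rose, S100a4 (0.97 ± 0.24), and its call was lost in 3 of the 10 alternatives.

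The genes that call neutrophils in and hold their enzymes in check moved in part. Of 7 CXCR2 ligands and growth factors 1 rose, Cxcl3, which was above background on none of the vehicle arrays and on all 5 at 162 µg of NRCWE-030 on day 1. Its log2 ratio differed by 0.56 ± 0.13 (adjusted p = 0.0312). In the Cy5 signal alone, which is open to dye bias, the difference was at least 1.49-fold, a bound on that channel and not on the ratio. Of 9 measured inhibitors of neutrophil proteases, Timp1 (3.18 ± 0.46), Serpina3n (1.16 ± 0.24) and Cstb (0.79 ± 0.09) rose, and Timp2 fell by 0.90. Of 7 measured regulators of granule genes, Cebpb rose by 0.55 ± 0.14 (adjusted p = 0.0477). Of these genes Cstb alone was called in all 10 alternatives, and Timp2 was called in 4 of them. None of the 4 receptors that bind calprotectin (Tlr4, Ager, Cd36 and Bsg) was called.

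At 162 µg of NRCWE-025 on day 1 and on day 28, 0 genes of these lists were called. Lcn2 there differed by 1.82 ± 0.61 on day 1 (adjusted p = 0.201). At 162 µg of NRCWE-030 on day 28, Mmp9, gelatinase B of the tertiary granules, was the one listed gene called. Its levels were -1.84, -1.74, -1.54, -1.83 and -1.71, all below the vehicle levels of -0.93, -0.39, -0.36, -0.79 and -0.64. The difference was -1.11 ± 0.16 (adjusted p = 0.00289), in the direction of the members, and day 1 vehicle mice had -0.78, -1.38, -1.85, -1.16 and -1.12. Lcn2 differed the other way by 1.82 ± 0.57 (adjusted p = 0.376), with levels of 2.68, 4.11, 3.65, 1.18 and 4.43 against 1.23 to 1.52. The differences between days for NRCWE-030 passed the test for Clec4d (1.60 ± 0.38), Il1r2 (1.59 ± 0.28), Csf3r (1.55 ± 0.36), Mmp9 (1.46 ± 0.30) and Timp1 (2.85 ± 0.60). Il1r2 alone of these was called in all 10 alternatives. Of the markers of other cells, Pparg, a transcription factor of alveolar macrophages, passed with a day difference of -0.84 ± 0.18 (adjusted p = 0.0207), and it was called in 5 of the alternatives.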

How the data were processed

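RNA of 69 lungs was measured on 2-colour Agilent arrays, with lung in Cy5, reference RNA in Cy3 and no dye swap. Per the file headers, 19 slides and 11 scan days were used. Scanner files as deposited, made with Agilent Feature Extraction 11.0.1.1, hold the median pixel intensity of each spot and of its local background, with no correction. Their deposited log ratio is log10(Cy5/Cy3), which the software formed from background-subtracted and dye-normalized signals, and deposited flags (other values of 0 or 1) mark outlying, saturated or well-measured spots. The deposited series matrix holds log2 values that the authors obtained by LOWESS within arrays. Against a loess without background correction its slope was 0.993 and its correlation 0.996 (medians over arrays), and column medians lay between -0.0457 and 0.0007, so its values were read as log2 lung over reference.

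Of 45018 spots, 43379 were not controls. Where a local background carried the software's outlier flag, the median of unflagged backgrounds of that array took its place. Background was corrected by normexp (offset 50), and loess was applied within arrays, with no scaling between arrays, using limma 3.58.1, the package data.table (version 1.17.8) and R 4.3.3. Symbols came from RefSeq accessions (27479 of 41174 probes, 66.7%), and probes of a symbol were combined by the median. Of 18749 symbols, 93 with missing values were left out and 18656 tested. Plots were drawn with matplotlib 3.10.9.

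Groups followed the labels, and replicates are separate mice. For each NM and day, limma's moderated F-test and contrasts against vehicle were fitted, and 1 fit of 14 groups tested NMs, days and vehicle days. All tests were two-sided, with Benjamini-Hochberg adjustment over all genes and a threshold of 0.05. Pairs of members were compared by 100000 permutations of mice within groups, a comparison added after the data had been seen. The code was tested on simulated data. The members, lists and tests were chosen with earlier results of these data known. Members were named whatever their values, and listed genes where they passed the test at 162 µg or between days. The 10 alternatives are other background corrections (none, or without replacement), scaling between arrays, the scanner log ratio, the series matrix, the brightest probe, a filter on dim probes, and the slide (fixed or random) or scan day as a block; each array was also left out in turn. Promoters came from RefSeq (GRCm38.p6), which held all 10 members; the arrays were designed on an earlier assembly, and no position from them is used. The number of arrays limits the precision.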

Additional observations from a re-analysis of the deposited data

Results flagged for a closer look

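Within groups of 4 or 5 mice, 126 combinations of member and group were screened for a single mouse far from the others, and 12 held one, 8 at the top and 4 at the bottom of their group. Chance alone marks about 1 in 20.

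Among the calprotectin genes, S100a8 was 0.74 in replicate 5 of NRCWE-025 54 µg day 28 and 2.06 in replicate 4 of NRCWE-025 162 µg day 28, both the lowest of their groups. S100a9 was 6.92 in replicate 4 of day 28 vehicle, below the other 4 mice. That mouse had the lowest S100a8, Cxcr2, Mmp8 and Retnlg of its group too, and leaving it out brought S100a9 past the threshold at 54 and 162 µg of NRCWE-030. Retnlg was 1.67 in replicate 4 of NRCWE-025 162 µg day 28, the mouse with the low S100a8, and Cxcr2 was 1.30 in replicate 2 of NRCWE-025 54 µg day 1, the highest of its group.

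Among the granule genes, Ngp was 1.35 in replicate 5 of NRCWE-025 18 µg day 1 and 0.70 in replicate 2 of NRCWE-030 54 µg day 1. Mpo was 1.46 in replicate 1 of NRCWE-025 162 µg day 28 and -0.02 in replicate 1 of NRCWE-030 162 µg day 1. Camp was 1.26 in replicate 1 of day 28 vehicle and 0.35 in replicate 1 of NRCWE-030 162 µg day 28. Ltf was 4.24 in replicate 4 of NRCWE-025 162 µg day 1. Each of these 7 was the highest of its group.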

How the results depend on the processing

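Over 10 alternatives, 9 of 3023 member tests passed the threshold, and 9 of 6800 did when single mice were left out. The shares of all genes called in these fits are not set beside the counts. The counts therefore do not tell a change in the members from a setting that called more genes at large. Counts of members called that moved from 0 were as follows. With the slide as a fixed block, 1 member (Cxcr2) was called at 54 µg and 1 at 162 µg of NRCWE-030 on day 28, and 1 between days for each NM. Cxcr2 was also the 1 member called between days for both NMs with the scan day as a block or the slide as a random block, and for NRCWE-030 with scaling between arrays. Leaving out 1 mouse gave 0 to 2 members called at 162 µg of NRCWE-030 on day 28, 0 to 1 at 54 µg, 0 to 1 between days for NRCWE-030 and 0 to 1 between vehicle days, where vehicle replicate 4 of day 28 decided all but the day count. That count came to 1 without vehicle replicate 2 of day 1, vehicle replicates 4 or 5 of day 28 or NRCWE-030 162 µg day 1 replicates 4 or 5. No paired analysis was possible because the labels give no replicate number that ties mice of different groups.

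Differences from vehicle at 162 µg that turned direction were all uncalled, and their causes were not tested. For NRCWE-025 on day 1, the slide as a fixed block gave -0.34 for Camp, -0.17 for Mpo, -0.36 for Ngp and 0.0227 for S100a8. The scan day gave 0.59 for Ltf, -0.0748 for Ngp, 0.26 for Retnlg, 0.0851 for S100a8 and 0.0322 for S100a9, and the slide as a random block -0.036 for Camp and -0.0717 for Ngp. Scaling gave 0.20 for Ltf, 0.10 for Retnlg, 0.22 for S100a8 and 0.83 for S100a9. The scanner log ratio gave 0.18 for S100a8, the series matrix 0.0409 and no background correction 0.0179 for S100a9, and normexp without replacement -0.10 for Mmp8 and -0.19 for Ngp. For NRCWE-025 on day 28, the slide and the scan day as fixed blocks are the same fit, because each slide had its own scan day. That fit gave 0.14 for Camp, 0.13 for Mmp8, 0.36 for Ngp, 0.30 for S100a8 and 0.06 for S100a9. The scanner log ratio gave -0.0553 for Ltf, 0.21 for Mmp8 and 0.62 for Ngp, and Ngp was 0.0553 with the slide as a random block, 0.0016 with scaling and 0.0036 in the series matrix. For NRCWE-030 on day 1, the fixed slide block gave -0.0726 for Camp, -0.16 for Mpo and 0.0816 for Retnlg, the scan day -0.0568 for Camp and -0.16 for Mpo, and the random block -0.0256 for Camp. Scaling gave 0.47 for S100a9, and the scanner log ratio -0.0345 for Ltf and -0.028 for Mpo. On day 28 the scanner log ratio gave -0.0685 for Ltf.

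Leaving out 1 mouse turned direction for NRCWE-025 on day 1 in Ltf (-0.64 to 0.48), Mmp8 (-0.0645 to 0.34), Ngp (-0.0253 to 0.0709), S100a8 (-0.25 to 0.041) and S100a9 (-0.12 to 0.0159), and on day 28 in Ltf (-0.62 to 0.62) and Ngp (-0.12 to 0.0773). For NRCWE-030 on day 1 it did so in Camp (-0.0449 to 0.0642), Ltf (-0.11 to 1.01) and Ngp (-0.0806 to 0.0006). Signal over background limits Ngp, Camp and Elane most.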
